A study of Rattus norvegicus with 23 samples.

Results

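The dystrophin-glycoprotein complex ties the actin cytoskeleton of a muscle cell to the basement membrane around it. Dystrophin binds actin inside the cell and the transmembrane subunit of dystroglycan at the membrane, the sarcoglycans brace this assembly sideways, and the outer subunit of dystroglycan binds laminin and related matrix proteins through sugar chains added in the secretory pathway. Loss of its parts is known to cause muscular dystrophies and dilated cardiomyopathy. Egflam encodes pikachurin, a secreted matrix protein with laminin-G domains that binds dystroglycan and is best known from the photoreceptor synapse of the mouse retina. The genes described are Egflam with 7 genes of the complex and its laminin ligand, Dmd, Dag1, Sgca, Sgcb, Sgcd, Utrn and Lama2, taken by symbol. The deposited tables held 7 of these 8 genes, out of 10723 genes with values per library and 11283 genes in the authors' tables of comparisons. Lama2, the laminin chain of the muscle basement membrane, was not analysed here.

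Egflam was chosen by its 12-week values, since it stood near the head of that ranking, at place 8 by limma p among 10655 genes tested, and the other genes were added for their place in the complex with those results known. The 12-week contrast is therefore given for all 7 genes as a description, without a test.

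Messenger RNA came from the myocardium of Sprague-Dawley rats in 4 groups. The groups with the device were 6 rats with myocardial infarction and a TRD device at 12 weeks and 5 such rats at 6 weeks (MI+TRD), and the groups without it were 6 rats with infarction alone at each time (MI). In every group the left coronary artery had been tied off, so no group was free of infarction, and the MI+TRD rats had undergone a second operation to implant the device. Effects of the device and of that operation cannot be told apart here. The labels describe neither the device nor the part of the ventricle sampled, and give no age or sex, and they name no animals, so replicates are treated as separate rats and the spread between samples may be partly technical. Values per library were used for the 12 libraries of the 12-week groups, which held between 7197118 and 10304156 recovered reads each. The 6-week groups entered through the authors' table alone.

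The promoters of the 2 members that lay below the MI mean in all 6 MI+TRD libraries, Egflam and Sgca, are shown from RefSeq (GRCr8), from 250 bases before to 50 bases after the start of the gene, on the strand of the gene. Capitals mark CANNTG, the E-box core, a motif known to be bound by basic helix-loop-helix factors, which reads the same on both strands.
Egflam, chr2:58203594-58203893, minus strand: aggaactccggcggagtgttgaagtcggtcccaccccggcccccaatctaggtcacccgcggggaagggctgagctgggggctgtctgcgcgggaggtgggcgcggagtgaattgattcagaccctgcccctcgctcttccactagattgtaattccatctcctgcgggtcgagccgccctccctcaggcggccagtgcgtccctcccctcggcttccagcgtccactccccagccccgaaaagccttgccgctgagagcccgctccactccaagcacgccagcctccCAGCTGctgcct
Sgca, chr10:80416026-80416325, minus strand: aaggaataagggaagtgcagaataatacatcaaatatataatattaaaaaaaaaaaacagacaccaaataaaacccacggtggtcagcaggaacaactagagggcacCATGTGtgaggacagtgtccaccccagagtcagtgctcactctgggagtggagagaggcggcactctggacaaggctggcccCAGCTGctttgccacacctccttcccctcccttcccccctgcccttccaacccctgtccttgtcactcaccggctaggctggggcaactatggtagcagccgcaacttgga
The Egflam window held 1 CANNTG and the Sgca window 2, and 1 in each was CAGCTG. Of 33469 promoter windows of 300 bases, 72.1% held CANNTG and 15.1% held CAGCTG on either strand. The GC box GGGCGG, searched on both strands, stood once in the Egflam window and not in the Sgca window, against 33.1% of all windows. Neither window held AGATAA, against 11.6% of all windows. The Egflam window was 67% G and C and the Sgca window 52.3%, beside a median of 51.7% over all windows. Promoter windows were found for 7 of the 8 genes, and Dag1 had none. Dmd had 3 windows, and the one on its outer start held 2 CANNTG and no GGGCGG, while the 2 overlapping windows of an inner start held 3 GGGCGG and no CANNTG.

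Egflam, the secreted ligand, is encoded on chromosome 2 (56503506 to 56679943, rn6, as deposited). Its normalized counts in MI+TRD replicates 1 to 6 were 8.39, 6.02, 7.15, 6.80, 7.30 and 6.01. In MI replicates 1 to 6 they were 11.3, 13.1, 9.31, 12.0, 12.0 and 9.44. Every MI+TRD library lay below every MI library, with the nearest 2 being MI+TRD replicate 1 and MI replicate 3. The mean was 6.94 ± 0.897 in MI+TRD and 11.2 ± 1.54 in MI (SD, n = 6 each), a ratio of 0.620. Each library had between 128 and 292 recovered reads of Egflam. In bulk tissue, fewer cells of a type and less RNA per cell cannot be told apart. The log2 fold change of MI+TRD over MI was −0.67 (SE 0.14) in deposited units and −0.53 relative to the median of all genes, which itself lay at −0.14. Of all 10655 genes tested, 1.59% had all 6 MI+TRD libraries below all 6 MI libraries and 0.113% had them all above. In the authors' deposited table, Egflam had a ratio of 0.611 and a false discovery rate of 0.0351, in a table where 2.9% of genes were lower and 0.0443% higher at a false discovery rate below 0.05. Since Egflam was chosen by its place in this same contrast, that rate is no further support for the difference. With limma, 0 of the 10655 genes passed an adjusted p of 0.05.

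Dag1 encodes dystroglycan, the receptor that is cut into the outer and the transmembrane subunit (chromosome 8, 116980501 to 116993183). Its normalized counts were 194, 147, 163, 190, 187 and 139 in MI+TRD replicates 1 to 6. The MI replicates 1 to 6 had 156, 161, 163, 229, 165 and 177. The groups overlapped, and the highest library of all was MI replicate 4. The mean was 170 ± 23.7 in MI+TRD and 175 ± 27.1 in MI (SD, n = 6 each), with a relative log2 fold change of 0.10. Another deposited entry overlaps Dag1 on the opposite strand.

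The ratio of Egflam to its receptor within a library does not depend on the scaling between libraries. It rests on the Egflam values by which the gene was chosen, beside a receptor whose group means were close, and is no further support for the difference. The ratio of Egflam to Dag1 was 0.0433, 0.0409, 0.0438, 0.0357, 0.0389 and 0.0432 in MI+TRD replicates 1 to 6. It was 0.0723, 0.0816, 0.0571, 0.0525, 0.0730 and 0.0532 in MI replicates 1 to 6. The groups did not overlap, and the MI+TRD libraries spread less, with 0.0410 ± 0.00316 against 0.0650 ± 0.0123 (SD, n = 6 each). Of all other genes, 0.319% had a ratio to Dag1 that was lower in all 6 MI+TRD libraries than in all 6 MI libraries. Pairs of genes for such ratios were chosen after the levels had been seen.

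**Figure D1:**
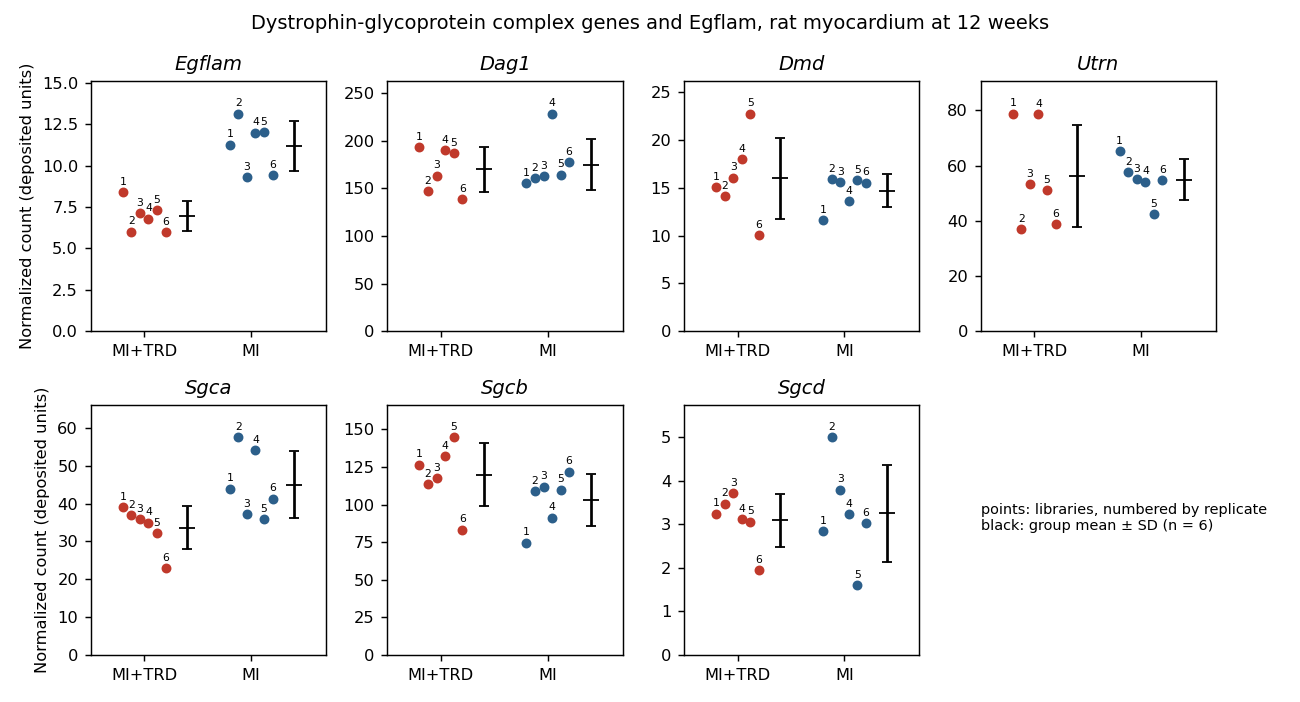
Normalized counts in deposited units of the 7 measured genes in each 12-week library, MI+TRD left and MI right in every panel, with points numbered by replicate and black marks for the group mean ± SD (n = 6). Egflam separates the groups, at 6.01 to 8.39 in MI+TRD and 9.31 to 13.1 in MI, while the groups of the other 6 genes overlap and MI+TRD replicate 6 is the lowest library for Dmd, Dag1, Sgca and Egflam.

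Dmd encodes dystrophin, the actin-binding rod of the complex. The deposited entry on chromosome X runs from 53360808 to 53517153, a span of 156346 bases. Dystrophin is known for one of the longest genes in mammals, with several inner promoters. The outer and the inner start in RefSeq (GRCr8) lay 2072958 bases apart, more than the deposited span, so the entry can cover only part of the gene, and which transcripts it counts is not given in the sources used here. Its normalized counts were 15.0, 14.1, 16.1, 18.0, 22.8 and 10.1 in MI+TRD replicates 1 to 6. In MI replicates 1 to 6 they were 11.7, 15.9, 15.6, 13.6, 15.8 and 15.5. The MI+TRD libraries held both the highest value, in replicate 5, and the lowest, in replicate 6. The mean was 16.0 ± 4.23 in MI+TRD and 14.7 ± 1.72 in MI (SD, n = 6 each), with a relative log2 fold change of 0.23. Without MI+TRD replicates 1, 4 and 5, whose short genes were low against their long genes, that value was 0.00.

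Utrn encodes utrophin, the paralogue of dystrophin, which shares its membrane partners and is known to be raised in dystrophin-deficient muscle of the mouse (chromosome 1, 6453555 to 6970041). Its normalized counts were 78.8, 37.1, 53.4, 78.6, 51.1 and 38.9 in MI+TRD replicates 1 to 6. Those of MI replicates 1 to 6 were 65.2, 57.6, 55.1, 54.2, 42.5 and 54.8. MI+TRD replicates 1 and 4 lay above all MI libraries and replicates 2 and 6 below all of them. The mean was 56.3 ± 18.5 in MI+TRD and 54.9 ± 7.30 in MI (SD, n = 6 each), and the relative log2 fold change of 0.13 was −0.20 without MI+TRD replicates 1, 4 and 5. The ratio of Utrn to Dmd ranged from 2.25 to 5.24 in MI+TRD and from 2.69 to 5.59 in MI. Since the Dmd entry can cover only part of its gene, this ratio does not give the amount of utrophin RNA relative to dystrophin RNA.

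The sarcoglycans are single-pass membrane proteins that assemble with each other before joining dystroglycan. Sgca, the alpha subunit, is known to be confined largely to striated muscle (chromosome 10, 82770905 to 82785143). Its normalized counts were 39.1, 36.9, 35.9, 35.0, 32.2 and 22.9 in MI+TRD replicates 1 to 6. In MI replicates 1 to 6 they were 43.9, 57.5, 37.2, 54.2, 36.0 and 41.3. All 6 MI+TRD libraries lay below the MI mean and 4 lay below every MI library, with MI replicates 3 and 5 reaching into the MI+TRD range. The mean was 33.6 ± 5.73 in MI+TRD and 45.0 ± 8.92 in MI (SD, n = 6 each), a ratio of 0.747. The relative log2 fold change was −0.27, and −0.14 without MI+TRD replicate 6. In the deposited table the entry Hils1 overlaps Sgca on the opposite strand, and whether counting used strand is not given in the sources used here.

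Sgcb, the beta subunit, is made in many tissues (chromosome 14, 37113194 to 37128624). Its normalized counts were 127, 113, 118, 132, 145 and 83.3 in MI+TRD replicates 1 to 6. The MI replicates 1 to 6 had 74.7, 109, 112, 91.3, 110 and 122. Of the MI+TRD libraries 3 lay above every MI library, while replicate 6 lay below all MI libraries but replicate 1. The mean was 120 ± 21.0 in MI+TRD and 103 ± 17.1 in MI (SD, n = 6 each), with a relative log2 fold change of 0.35, and of 0.18 without MI+TRD replicates 1, 4 and 5.

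Sgcd, the delta subunit, known as the gene mutated in the cardiomyopathic hamster, was the member with the fewest reads, between 38 and 102 per library (chromosome 10, 32062946 to 32471455). Its normalized counts were 3.25, 3.47, 3.72, 3.11, 3.06 and 1.95 in MI+TRD replicates 1 to 6. Those of MI replicates 1 to 6 were 2.85, 4.997, 3.80, 3.24, 1.60 and 3.03. The MI libraries enclosed the MI+TRD range at both ends. The mean was 3.09 ± 0.611 in MI+TRD and 3.25 ± 1.12 in MI (SD, n = 6 each), with a relative log2 fold change of 0.12. Another entry of the deposited table overlaps Sgcd on the same strand.

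The MI+TRD mean lay below the MI mean for alpha and above it for beta sarcoglycan, and the ratio of these genes within a library separated the groups by a narrow gap. The ratio of Sgca to Sgcb was 0.309, 0.325, 0.305, 0.264, 0.222 and 0.275 in MI+TRD replicates 1 to 6. It was 0.588, 0.528, 0.332, 0.594, 0.327 and 0.339 in MI replicates 1 to 6. MI replicates 3, 5 and 6 lay just above the highest MI+TRD library, and MI replicates 1, 2 and 4 far above it. The mean was 0.283 ± 0.0375 in MI+TRD and 0.451 ± 0.132 in MI (SD, n = 6 each). Of all other genes, 0.469% had a ratio to Sgcb that was lower in all 6 MI+TRD libraries than in all 6 MI libraries. The pair was chosen after the levels had been seen, so its ratio is no further support for a difference. The ratio of Sgca to Dag1 overlapped, at 0.165 to 0.250 in MI+TRD and 0.219 to 0.357 in MI. Those of Sgcd to Sgcb and of Dmd to Dag1 overlapped too.

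**Figure D2:**
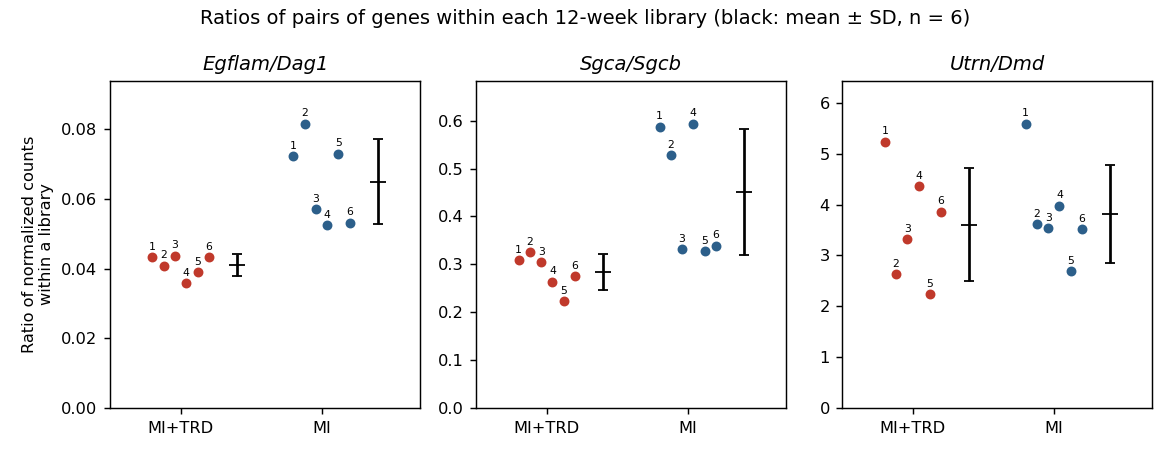
Ratio of the normalized counts of 2 genes within each 12-week library, for Egflam to Dag1, Sgca to Sgcb and Utrn to Dmd, MI+TRD left and MI right, with points numbered by replicate and black marks for the mean ± SD (n = 6). The Egflam to Dag1 ratio stays between 0.0357 and 0.0438 in MI+TRD and between 0.0525 and 0.0816 in MI, while the Utrn to Dmd ratio overlaps. The Dmd entry can cover only part of its gene.

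Over all genes, limma with Benjamini-Hochberg adjustment called 0 of 10655 at an adjusted p below 0.05, edgeR's quasi-likelihood test on recovered reads also called 0 and DESeq2 called 21 (0.197%), none of them a member. At an unadjusted p below 0.05, 19.1% of all genes were lower and 2.8% higher in deposited units.

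Several measures differed between the libraries behind these values. MI+TRD replicate 6 ranked among the 3 lowest of the 12 libraries for all 7 genes. Its 14 cardiomyocyte markers summed to 39844 normalized counts, below the other MI+TRD libraries at 44928 to 65660 and below MI at 48347 to 78080. Its 14 macrophage markers summed to 2159, while those of the remaining MI+TRD libraries summed to 61.6 to 273 and those of MI to 85.6 to 233. Without this library the Egflam mean was 7.13 ± 0.862 in MI+TRD (SD, n = 5) and the Sgca mean 35.8 ± 2.55, both still below the MI means of 11.2 and 45.0. The 12 fibroblast markers summed to between 1315 and 4072 in MI+TRD and between 1907 and 3230 in MI, the 11 endothelial markers to 784 to 1388 and 890 to 1257, and the 12 smooth muscle and pericyte markers to 1236 to 2993 and 1568 to 2197. The smooth muscle and pericyte list held Des, which is also counted below among the cytoskeletal partners. Des alone averaged 1270 ± 346 in MI+TRD and 1283 ± 215 in MI, so that sum mostly follows Des. The 8 adipocyte markers summed to 122 to 197 in MI+TRD and 166 to 322 in MI, with medians of 138 and 217 and the highest sum in MI replicate 2. That sum was mostly Fabp4, averaging 96.3 in MI+TRD and 152 in MI, and Lipe, averaging 40.5 and 59.3. The next highest, Cfd, averaged 7.54 and 8.20. The mean log2 value of the 8 markers, relative to the library median, was −2.57 to −0.82 in MI+TRD. In MI it was −2.75 to 0.56, so the groups overlapped on that scale. The 7 Schwann and nerve markers summed to 16.0 to 83.2 in MI+TRD and 19.8 to 69.9 in MI, with medians of 22.4 and 41.5. At an unadjusted limma p below 0.05, 5 of the 14 cardiomyocyte, 3 of the 11 endothelial, 2 of the 12 fibroblast, 2 of the 8 adipocyte and 1 of the 7 Schwann and nerve markers were lower and none of these was higher, beside 19.1% of all genes lower. Of the 9 measured epicardial and mesothelial markers, 6 were higher and 0 lower at that p, beside 2.8% of all genes higher. The smooth muscle and pericyte, macrophage, atrial and erythroid lists had 0 markers in either direction. No marker in these lists was at 0 reads in every library. The 8 atrial markers summed to 988 to 4224 in MI+TRD and 807 to 13266 in MI, highest in MI replicate 2, which was also the highest library for Egflam, Sgca and Sgcd. What part these other cells had in the members' values was not tested.

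Fold changes also moved with the span of a gene. The relative log2 fold change had a median of −0.29 over 353 genes spanning up to 2 kb. That median was −0.18 over 2612 genes spanning over 2 and up to 10 kb. This class holds Gmppa, Pomgnt1, Itgb1bp2, Ilk, Krt19 and Mmp9, named below. The median was −0.05 over 2143 genes spanning over 10 and up to 20 kb, the class of Dag1, Sgca and Sgcb. The median was 0.14 over 776 genes spanning over 100 and up to 200 kb, the class of Egflam and the Dmd entry, and also 0.14 for the 573 longer genes, the class of Utrn and Sgcd. Set against the MI mean of each gene, the median log2 value of the 2965 genes of up to 10 kb was lower than that of the 2759 genes over 50 kb by a difference of −0.62, −0.62 and −0.63 in MI+TRD replicates 1, 4 and 5. That difference lay between −0.12 and 0.00 in the other MI+TRD libraries and between −0.15 and 0.13 in MI. What part this had in the members' values was not tested beyond the values without these libraries and with the trend removed. Egflam lay below the median of its class and Sgcb above that of its own. With the trend over span removed in each library, the relative log2 fold change was −0.66 for Egflam, −0.23 for Sgca, 0.38 for Sgcb, 0.10 for Dmd and 0.04 for Utrn.

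The 12 libraries shared a pattern between some members. Over the 12 libraries, with the library median subtracted on the log2 scale, Sgcb stood in place 4 of all other named genes by likeness to Dmd, with Pearson's r of 0.93 and Spearman's rho of 0.97, and r of 0.96 without the 2 libraries farthest from the Dmd median. The r between Dmd and Sgcb was 0.96 within the MI+TRD libraries and 0.98 within the MI libraries, although the genes lie on different chromosomes. The genes most like Dmd were Six4, a homeobox factor of muscle development, the pseudophosphatase gene Styx, the phosphatase regulatory gene Ppp2r3a, Sgcb and the RNA-binding protein gene Stau2, with r between 0.93 and 0.96. The points share depth, scaling and the tissue mix of each library, and the highest of many r values are high in part through being picked, so no p is given.

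Sgca did not share this pattern. Its r with Dmd was 0.25, made up of 0.70 within MI+TRD and −0.37 within MI, where MI+TRD replicate 6 was low for both genes. The genes most like Sgca were Rilpl1, the thyroid hormone receptor gene Thra, the dipeptidase gene Dpep1, Hhatl and Abcb9, with r between 0.87 and 0.91. Those most like Dag1 were the muscle glycogen phosphorylase gene Pygm, the glycogen synthase gene Gys1, the phosphatase gene Mtm1, the L-type calcium channel gene Cacna1c and the phosphodiesterase gene Pde3a, with r between 0.96 and 0.98. Those most like Egflam were Vtn, which encodes the matrix and plasma protein vitronectin, the Wnt signalling gene Dvl1, the p38 kinase gene Mapk12, Get4 and the potassium-chloride cotransporter gene Slc12a4, with r between 0.83 and 0.90. Since Egflam was chosen for its difference between the groups, likeness over both groups picks genes that share that difference. Within MI+TRD the r of these 5 genes with Egflam lay between 0.34 for Get4 and 0.81 for Vtn, and within MI between 0.61 and 0.97. No other member came within the first 50 places for Egflam, Sgca being nearest at place 80 with r of 0.71, or 0.49 without the 2 libraries farthest from the Egflam median. Within MI+TRD the r with Egflam was 0.92 for Dag1, 0.86 for Utrn, 0.81 for Sgcb, 0.79 for Sgca, 0.72 for Sgcd and 0.70 for Dmd, where replicate 6 was low for all of them. Within MI it was 0.24 for Sgca and between −0.53 and −0.21 for the others.

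**Figure D3:**
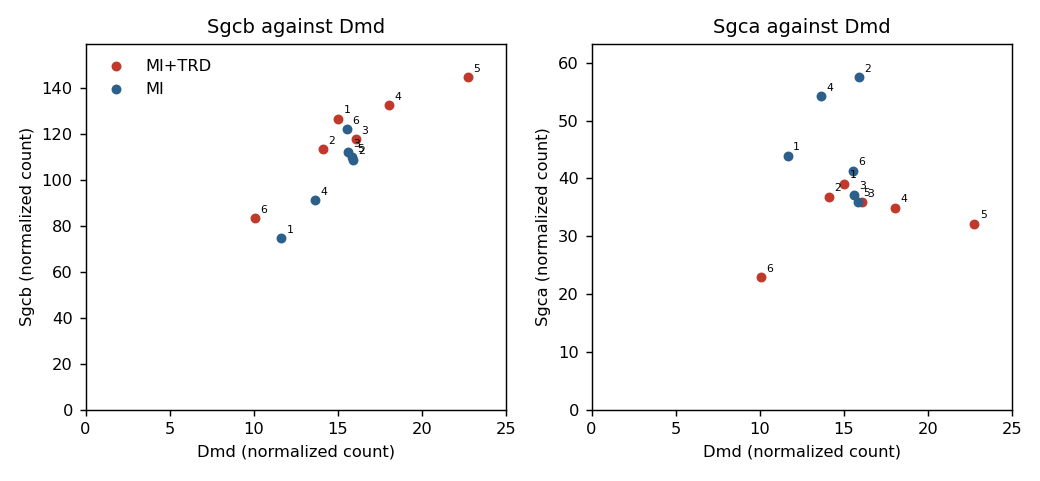
Normalized counts of Sgcb (left) and Sgca (right) against those of Dmd in the 12 libraries at 12 weeks, MI+TRD in red and MI in blue, numbered by replicate. Sgcb is higher where Dmd is higher across both groups (r = 0.93 on the log2 scale relative to the library median), while Sgca does not (r = 0.25).

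The 6-week comparison came from other samples and was read from the authors' deposited table, without values per library, so no spread can be given. Of its 11283 genes, 4.09% were lower and 4.42% higher at a p below 0.05, and 0 members were in either set. At a false discovery rate below 0.05 the table called 0 genes, its lowest rate being 0.0989. Egflam had a mean of 12.1 in MI+TRD and 14.0 in MI at 6 weeks in the authors' deposited table, a ratio of 0.864 (p = 0.217, false discovery rate 0.841). The authors' deposited means of Utrn were 39.4 in MI+TRD and 47.1 in MI (ratio 0.836, p = 0.185), and those of Sgca 35.3 and 38.9 (ratio 0.909, p = 0.615). Dag1, Dmd and Sgcb had ratios of 1.02, 1.03 and 1.003 in the authors' deposited table, and Sgcd, at means of 2.04 and 1.72, had 1.19. Whether the MI+TRD difference from MI in any member changed from 6 to 12 weeks was not tested. That needs values per library at both times.

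**Figure D4:**
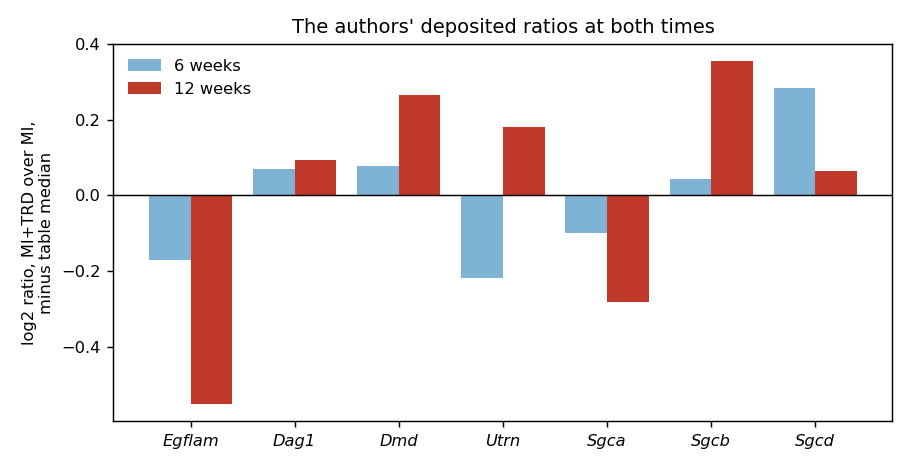
Log2 ratio of MI+TRD over MI minus the median of the table for the 7 genes, from the authors' deposited tables at 6 weeks (blue) and 12 weeks (red), without error bars since the tables give none. Egflam is at −0.17 and −0.55 and Sgca at −0.10 and −0.28 at 6 and 12 weeks, and Utrn has opposite signs.

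The rest of the pathway was read from 5 lists, chosen with earlier results of these data known. No gene of any list passed at 12 weeks over all genes tested with limma, whose lowest adjusted p was 0.133, and none was below a false discovery rate of 0.05 in either authors' deposited table. Counts are therefore given at an unadjusted limma p below 0.05, beside 19.1% of all genes lower and 2.8% higher.

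Of the other subunits of the complex 10 were measured, with 3 lower, 0 higher and a median relative log2 fold change of −0.12. Cav3, the muscle caveolin that binds dystroglycan's tail, measured 39.9 to 57.9 in MI+TRD and 56.2 to 99.9 in MI, with means of 49.1 ± 7.60 and 74.5 ± 16.9 (SD, n = 6 each; limma adjusted p = 0.133). All 6 MI+TRD libraries were below the MI mean for Cav3. Sspn, sarcospan, the small tetraspan-like subunit, averaged 122 ± 24.0 in MI+TRD and 124 ± 17.4 in MI, and the epsilon sarcoglycan gene Sgce 6.75 ± 2.49 and 8.50 ± 1.91.

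The enzymes that build the matrix-binding sugar of dystroglycan had 19 measured genes, with 5 lower, 0 higher and a median relative log2 fold change of −0.09. With the trend over gene span removed in each library, that median was 0.00. Gmppa, a regulator of the supply of GDP-mannose, averaged 6.29 ± 2.41 in MI+TRD and 9.10 ± 2.004 in MI (limma adjusted p = 0.154), 5 of 6 MI+TRD libraries being below the MI mean. B4gat1, the glucuronyltransferase that primes the chain, averaged 12.6 ± 0.822 and 15.6 ± 2.04, and its entry overlaps 5 others. Pomgnt1, which extends the mannose core, averaged 17.7 ± 1.501 and 21.3 ± 2.35.

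Other matrix ligands and basement membrane genes numbered 14, with 2 lower, 1 higher and a median relative log2 fold change of 0.00. Slit3, a guidance factor of a family that binds dystroglycan, averaged 10.2 ± 5.84 in MI+TRD and 4.95 ± 0.989 in MI (relative log2 fold change 1.01, limma adjusted p = 0.133), all 6 MI+TRD libraries being above the MI mean. MI+TRD replicates 5 and 6 were at 18.7 and 16.6, while the other MI+TRD libraries lay between 5.11 and 7.81, of which 3 were below MI replicate 2 at 6.89. DESeq2 on recovered reads called it over all genes (adjusted p = 0.0422). Without MI+TRD replicate 5 the DESeq2 adjusted p was 0.163 and without replicate 6 it was 0.0655, and it lay between 0.0502 and 0.161 without any 1 of the MI libraries, so the call was lost in each of these cases. Agrn, agrin, averaged 72.0 ± 6.84 in MI+TRD and 89.8 ± 16.8 in MI, and Lamb2, the laminin beta-2 chain, 519 ± 62.0 and 650 ± 109. The 21 integrin and cytoskeletal partners had 2 lower and 1 higher, with a median of 0.13, and −0.15 without MI+TRD replicates 1, 4 and 5. Without 1 library it lay between 0.06, without MI+TRD replicate 4 or 5, and 0.23, without replicate 6. Itgb1bp2, melusin, a muscle chaperone on the tail of the beta-1 integrin, averaged 59.1 ± 8.61 in MI+TRD and 85.1 ± 16.7 in MI (limma adjusted p = 0.133). Ilk, the integrin-linked pseudokinase, averaged 37.4 ± 7.27 and 47.6 ± 6.29. Krt19, a keratin that binds dystrophin, averaged 0.777 ± 0.730 in MI+TRD and 0.120 ± 0.109 in MI, with 4 of 6 MI+TRD libraries above the MI mean, and it is also a marker of the epicardial lining, whose 9 measured markers summed to 30.8 to 117 in MI+TRD and 25.7 to 41.4 in MI. The integrin chains of the parallel laminin receptor averaged 130 ± 22.5 and 149 ± 29.1 for Itga7 and 290 ± 35.3 and 281 ± 41.9 for Itgb1.

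Of 6 proteases and inhibitors linked to dystroglycan 1 was lower and 0 higher, with a median of 0.11. That median was 0.03 without MI+TRD replicate 6, 0.05 without replicate 4 and 0.07 without replicate 5. Furin, a proprotein convertase, averaged 51.2 ± 5.95 in MI+TRD and 65.1 ± 9.94 in MI. The gelatinase Mmp2, known to cut the transmembrane subunit, averaged 68.4 ± 22.5 and 83.5 ± 14.1. Mmp9, the other gelatinase with that activity, measured 24.4 in MI+TRD replicate 6, against at most 0.372 in the other MI+TRD libraries and 0.644 in MI. At 6 weeks the authors' deposited table had 3 of these 6 genes higher and 0 lower at a p below 0.05, beside 4.42% of all its genes higher. The authors' deposited means of Mmp2 were 168.3 in MI+TRD and 91.8 in MI at 6 weeks (ratio 1.83, p = 0.000382, false discovery rate 0.286), the opposite direction to that at 12 weeks, where their means were 69.5 and 87.1. Those of Mmp9 were 3.22 and 0.114 (p = 0.00647) and those of the inhibitor gene Timp2 149 and 107 (p = 0.0427) in the authors' deposited table. In the other 4 lists 1 gene was lower and 2 were higher at that p. The authors' deposited table gave Agrn a ratio of 0.782 (p = 0.0367), the proteoglycan gene Bgn 1.82 (p = 0.0221) and the glycosylation gene Tmem5 1.26 (p = 0.0312). Whether these group differences changed between the times was not tested. These 12-week medians are beside 0 for all genes by construction, with the quartiles of all genes at −0.21 and 0.21.

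**Figure D5:**
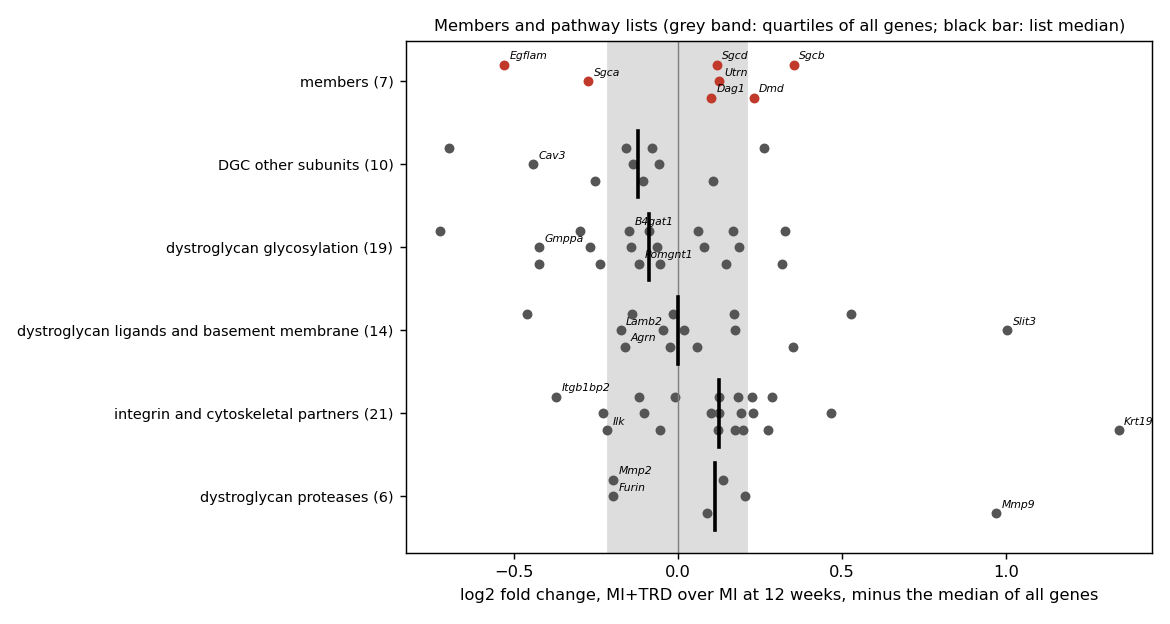
Log2 fold change of MI+TRD over MI at 12 weeks minus the median of all genes, for the 7 members (red) and the genes of the 5 pathway lists (grey points, with the number measured), with black bars for list medians and a grey band between the quartiles of all genes, −0.21 and 0.21. Egflam at −0.53, Sgca at −0.27, Dmd at 0.23 and Sgcb at 0.35 lie outside the band, and all list medians lie within it.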

How the data were processed

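The deposited values per library are a signal, the authors' normalized count per gene and library at 12 weeks, per the file headers. The submitters' processing notes name Partek and rn6, without aligner, counter, annotation or model, which the sources used here do not state. The authors' deposited tables for 6 and 12 weeks give per gene a p-value with a false discovery rate, a linear ratio, a signed fold change score and a least-squares mean signal per group, per the file headers. Reads were recovered as the value over the library's smallest value, minus 1. Of values up to 20 steps, 97.2% to 98.6% in each library were whole to within 0.1, and a gene at 0 could have up to 3 reads where only counting error is covered. No 2 libraries of a group were alike within sampling noise, the closest pair having a chi-square of 15 per degree of freedom.

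The test was limma 3.58.1 with a trended prior on log2(value + 0.208 deposited units), two-sided, over 10655 genes with a mean share of at least 0.415 deposited units, all 7 members included, Benjamini-Hochberg adjusted at 0.05. Log2 fold changes are on that scale, which understates low genes. Alternatives were other pseudocounts, filters and scalings, library weights, a replicate block, single libraries left out, edgeR 4.0.16 (0 genes called) and DESeq2 1.42.0 (21 called) on recovered reads. The steps were tested on simulated data. The members, lists, likeness rule and the rule for naming genes (all members, and the 3 smallest p of each list) were chosen with earlier results of these data known. Other listed genes (Sspn, Sgce, Itga7, Itgb1) were named for their role, Timp2, Bgn and Tmem5 after their 6-week values were seen, and some listed genes that enter the counts and medians are not reported here.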

Additional observations from a re-analysis of the deposited data

Results flagged for a closer look

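In 6 of 44 groups of 6 libraries checked for the named genes and ratios, 1 library stood far from the others, a gap that chance gives in about 1 group in 20. Dag1 was 228.6 in MI replicate 4, against 177 in the next MI library. Sgcd was 1.95 in MI+TRD replicate 6, against 3.06 in the next one up. Mmp9 was 24.4 in MI+TRD replicate 6 and 0.644 in MI replicate 1, where the next libraries were at 0.372 and 0.226. In MI replicate 2, Gmppa was 13.0, against 9.08 in the next, and Slit3 was 6.89, against 4.86.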

How the results depend on the processing

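Of the 25 alternatives, only DESeq2 on recovered reads moved the count of genes called, to 21. For the integrin and cytoskeletal list, the median relative log2 fold change of 0.13 was −0.15 without MI+TRD replicates 1, 4 and 5, and the cause was not tested. Over all alternatives the list medians lay between −0.23 and −0.08 for the other subunits, −0.12 and 0.00 for the glycosylation genes, −0.11 and 0.05 for the matrix ligands, −0.15 and 0.23 for the integrin partners and 0.03 and 0.16 for the proteases. The other subunits' median was −0.08 without MI+TRD replicate 6 and the glycosylation median −0.05 without MI replicate 4. With the span trend removed, the medians were −0.23 for the other subunits, 0.00 for the glycosylation genes and −0.11 for the matrix ligands. They were then 0.07 for the integrin partners and 0.04 for the proteases. The DESeq2 call of Slit3, whose leave-one-out fits were chosen after seeing the data, was lost without 8 of 12 single libraries, with log2 fold changes of 0.95 to 1.33. All other members', ratios' and lists' values moved by less than the spread between replicates. Over all alternatives the relative log2 fold change lay between −0.66 and −0.46 for Egflam, −0.35 and −0.13 for Sgca and 0.18 and 0.48 for Sgcb. Those of Dag1 (−0.06 to 0.19), Sgcd (−0.04 to 0.27) and Utrn (−0.20 to 0.25) took both signs, and Dmd ran from 0.00 to 0.39. The log2 difference of Egflam against Dag1 lay between −0.82 and −0.56, and that of Sgca against Sgcb between −0.71 and −0.40, both chosen after the data had been seen. Genes at an unadjusted p below 0.05 numbered 298 higher and 2033 lower in deposited units. They numbered 798 and 878 with median ratio scaling, 1208 and 412 with equal column totals, 701 and 1042 with quantile normalization and 542 and 867 with the span trend removed, and 852 and 744 with edgeR. Libraries of the same replicate number correlated between −0.33 and 0.33 in their deviations from the group means, 3 of 6 MI+TRD libraries correlating best with their own number. Whether samples of the same number share more than that number cannot be told from these values. With the replicate block 0 genes passed, the unadjusted counts were 272 higher and 1835 lower, and Egflam stayed at −0.53. The low reads of Sgcd limit its precision.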
